A study of Macaca fascicularis with 12 samples.

Results

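Genes of the hypoxia response and of glycolysis were examined in biopsies of the iliac artery from 12 cynomolgus monkeys (Macaca fascicularis), all female. The set comprised 10 of the 18160 genes that had a tested probe of their own, namely HIF1A, VEGFA, SLC2A1, HK2, PFKFB3, PGK1, ENO1, LDHA, PDK1 and NDRG1. A probe belonged to the set if the platform's annotation gave it 1 of these symbols and no other, and 13 of the 54359 probes on the array did so. VEGFA, HK2 and LDHA had 2 probes each and the other 7 genes had 1 each. All 13 probes carried a value on all 12 arrays and lay above the floor used for dim values, so all 10 genes were tested. A further 2 probes named ENO1 or PGK1 beside another gene and were not used.

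The arteries formed 3 groups by the area of atherosclerotic plaque in the same vessel. The small group held 4 animals with 0 to 0.113 mm2 of plaque, 2 of them with no plaque, the medium group 5 animals with 0.30 to 0.542 mm2, and the large group 3 animals with 0.61 to 1.003 mm2. All groups shared the rest of the model: the animals were over 20 years old, had received a high fat diet for 8 years and had been without ovaries for 4 years, and none had a further treatment, so no artery came from an animal on a normal diet. A biopsy of each animal was measured on its own single-colour CodeLink array of human probes. "Small", "medium" and "large" below denote whole arteries of that group, not plaque tissue alone.

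Cells that run short of oxygen stop degrading the alpha subunits of hypoxia-inducible factor, which then enter the nucleus and raise transcription of genes for glucose uptake, glycolysis, lactate formation and new vessels. The thick intima of a plaque lies far from the blood supply, and macrophages switch on many of the same genes when they are activated. HIF1A encodes one of the alpha subunits, which are controlled mainly through the stability of the protein, so that its mRNA need not follow its activity. The other genes of the set are textbook targets of this factor.

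Values are the deposited intensities, on a scale where every array's median is close to 1. Differences are given on the log2 scale with the standard error (SE) of the limma fit over all 12 arrays, and "rose" or "fell" is used only for an adjusted p under 0.05, Benjamini-Hochberg adjusted over the 53877 probes tested. The annotation and the human design allow each probe to be compared with itself across animals, not with other probes. The 12 arrays were alike in scale. Array medians lay between 1.00 and 1.01, 53832 to 53867 probes had a value on each array, and arrays correlated at 0.918 to 0.972 across probes. The 99th percentile of intensity was 114.2 to 147.6 on 11 arrays and 195.8 on that of small replicate 1.

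In arteries with medium plaque 3 of the 10 genes rose against small, NDRG1, LDHA and ENO1, and none fell. In arteries with large plaque 1 rose, NDRG1, and none fell. Over all probes 3.14% passed in medium against small, 1.97% as higher and 1.17% as lower, and 1.15% passed in large against small, 0.948% as higher and 0.197% as lower. Among the brightest probes of the 18080 genes with a single symbol, which is how each gene of the set was counted, 5.2% passed in medium, 3.6% as higher and 1.6% as lower, and 2.17% passed in large, 1.91% as higher and 0.254% as lower. No test was made of the set against these shares. Both comparisons used the same 4 small arteries, so they are not independent of each other. In whole tissue fewer cells of a type and less RNA per cell cannot be told apart, nor can more of either, and the values of cell type markers, which moved with the groups, are given below.

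**Figure D1:**
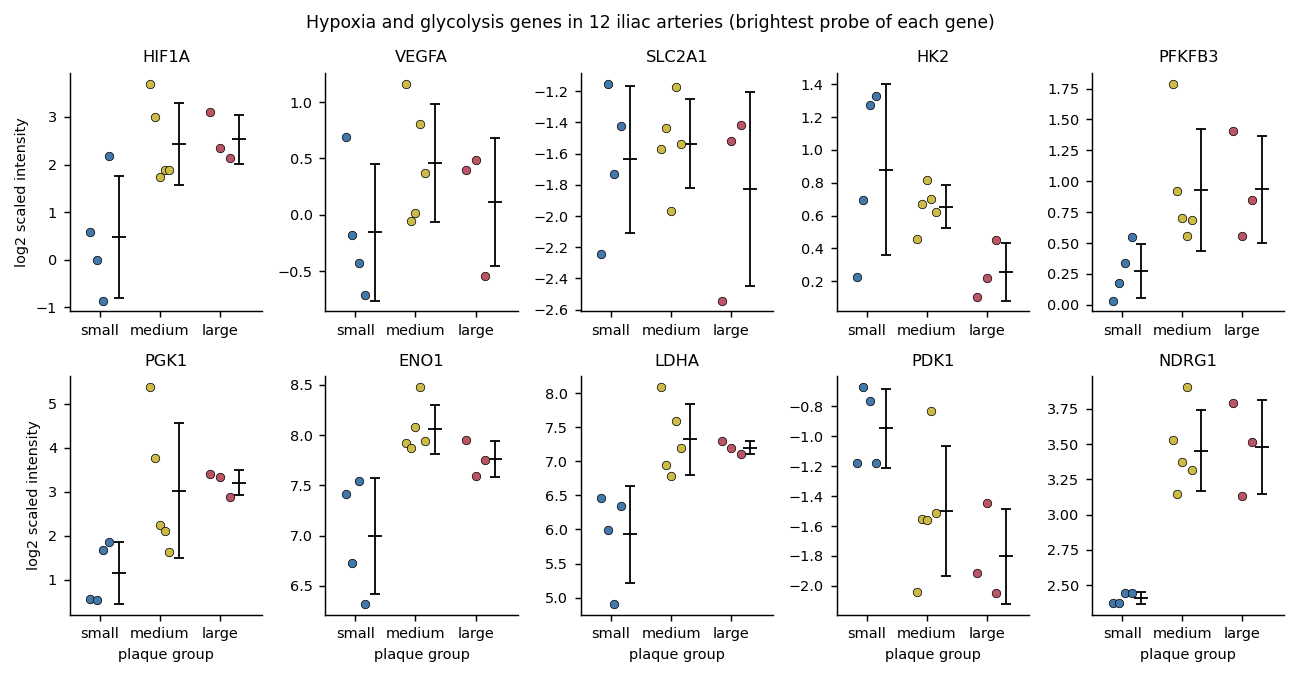
Log2 scaled intensity of the brightest probe of each of the 10 genes (y axes) by plaque group (x axes: small, n = 4, then medium, n = 5, then large, n = 3), 1 point per artery, with the group mean and SD as a bar beside the points. All medium and large arteries lie above all small ones for PFKFB3, ENO1, LDHA and NDRG1, while the SLC2A1 and VEGFA points of the 3 groups are mixed.

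NDRG1, a stress-responsive protein whose gene is induced by low oxygen, gave the tightest separation in the set. Its intensities were 5.18, 5.19, 5.45 and 5.46 in small, 11.5, 8.87, 10.4, 14.9 and 9.94 in medium, and 13.9, 8.77 and 11.4 in large. Every medium and large artery lay above every small one, and the small arteries were close to each other, with an SD of 0.042 log2 units (n = 4). NDRG1 rose by 1.04 ± 0.18 in medium (SE, n = 5 and 4; limma adjusted p 0.0115), 2.06-fold, and by 1.07 ± 0.21 in large (SE, n = 3 and 4; limma adjusted p 0.0341), 2.10-fold. The call in medium held without any 1 animal, at adjusted p-values from 0.0107 to 0.0385. In large it was lost without small replicate 2, 3 or 4, medium replicate 3, or large replicate 1 or 3, at adjusted p-values from 0.0505 to 0.177. The difference in large stayed between 0.91 and 1.24. Over all probes 617 passed in large with all animals, 132 without large replicate 1 and 112 without large replicate 3.

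LDHA encodes the subunit of lactate dehydrogenase that favours lactate formation. Its brighter probe, annotated to the RefSeq transcript, read 88.4, 63.7, 30.1 and 81.4 in small, 272, 123, 110.3, 193 and 147 in medium, and 157, 147 and 138 in large. The highest small artery lay below the lowest medium and the lowest large one. LDHA rose by 1.39 ± 0.33 in medium against small (limma adjusted p 0.0434), 2.63-fold. In large the difference was 1.27 ± 0.38, which did not pass (adjusted p 0.128).

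ENO1, the enolase of most tissues, catalyses the last step but one of glycolysis. Its intensities were 170.3, 106, 186 and 80.1 in small, 242, 234, 271, 356 and 247 in medium, and 247, 193 and 215 in large. The groups did not overlap in either comparison with small. ENO1 rose by 1.06 ± 0.25 in medium (limma adjusted p 0.0405), 2.08-fold, and differed by 0.76 ± 0.28 in large (adjusted p 0.214).

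The calls of LDHA and ENO1 in medium lay close to the threshold. That of ENO1 was lost when any 1 of 10 animals was left out, all but small replicates 1 and 3, at adjusted p-values from 0.0536 to 0.112. The call of LDHA was also lost for 10 animals, all but small replicate 1 and medium replicate 3, at adjusted p-values from 0.0505 to 0.099. The differences themselves stayed between 0.83 and 1.24 for ENO1 and between 1.06 and 1.57 for LDHA. Over all probes 847 to 1568 passed in medium with 1 animal left out, against 1693 with all animals.

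HIF1A itself showed the largest mean difference of the set and did not pass. Its intensities were 1.50, 0.991, 0.552 and 4.55 in small, 12.9, 7.96, 3.32, 3.70 and 3.70 in medium, and 8.60, 5.13 and 4.38 in large. Small replicate 4, an artery without plaque, exceeded 3 medium arteries and 1 large one. The difference was 1.96 ± 0.57 in medium (adjusted p 0.0899) and 2.06 ± 0.65 in large (adjusted p 0.148). Without small replicate 4, the highest small artery for this gene, HIF1A differed by 2.53 in medium and passed, at a limma adjusted p of 0.0243. Without any other 1 animal it did not pass, at limma adjusted p-values up to 0.197.

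PGK1 encodes phosphoglycerate kinase, the first enzyme of glycolysis to make ATP. It read 1.48, 1.44, 3.17 and 3.60 in small, 41.6, 13.7, 4.75, 4.32 and 3.08 in medium, and 10.6, 10.0 and 7.35 in large. The medium arteries were spread widely, with an SD of 1.54 log2 units against 0.284 in large, and the lowest of them lay within the range of small. The differences of 1.87 ± 0.65 in medium (adjusted p 0.15) and 2.05 ± 0.74 in large (adjusted p 0.204) did not pass.

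PFKFB3 makes the sugar phosphate that activates phosphofructokinase and so sets the pace of glycolysis. Its intensities were 1.02, 1.13, 1.27 and 1.46 in small, 3.45, 1.89, 1.63, 1.47 and 1.61 in medium, and 2.65, 1.47 and 1.80 in large. The groups did not overlap, but the highest small artery and the lowest of the others were almost level. The difference was 0.66 ± 0.26 in medium (adjusted p 0.211) and 0.66 ± 0.30 in large (adjusted p 0.307).

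Between medium and small the ranges of 4 of the 10 genes did not overlap, all with medium above. Of all probes 8.28% did not overlap, 3.94% with medium above and 4.34% with medium below. Shares of non-overlapping ranges, here and later, are over all probes, named or not. No such share was computed over the brightest probe of each gene, which is how the set was counted. Between large and small 5 did not overlap with large above, PGK1 joining the 4, against 5.99% of all probes, and 1 with large below, against 8.52%, or 14.5% in either direction. That gene was PDK1, a kinase that switches off pyruvate dehydrogenase. PDK1 read 0.442, 0.627, 0.587 and 0.442 in small, 0.243, 0.340, 0.339, 0.561 and 0.350 in medium, and 0.266, 0.368 and 0.242 in large. It differed by -0.55 ± 0.24 in medium (adjusted p 0.241) and by -0.85 ± 0.27 in large (adjusted p 0.15), neither past the threshold, on a probe at the 32nd percentile of brightness.

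SLC2A1, the glucose transporter GLUT1, had the dimmest probe of the set, at the 29th percentile. It read 0.211, 0.449, 0.301 and 0.373 in small, 0.337, 0.369, 0.256, 0.443 and 0.344 in medium, and 0.172, 0.349 and 0.375 in large, and the 3 groups overlapped. The difference was 0.10 (95% confidence interval -0.51 to 0.71) in medium and -0.19 (-0.88 to 0.51) in large. The interval in medium leaves room for a difference of up to 0.71 log2 units upwards. The deposited table carries no detection call, so whether the probe measured monkey SLC2A1 at this level was not tested.

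**Figure D2:**
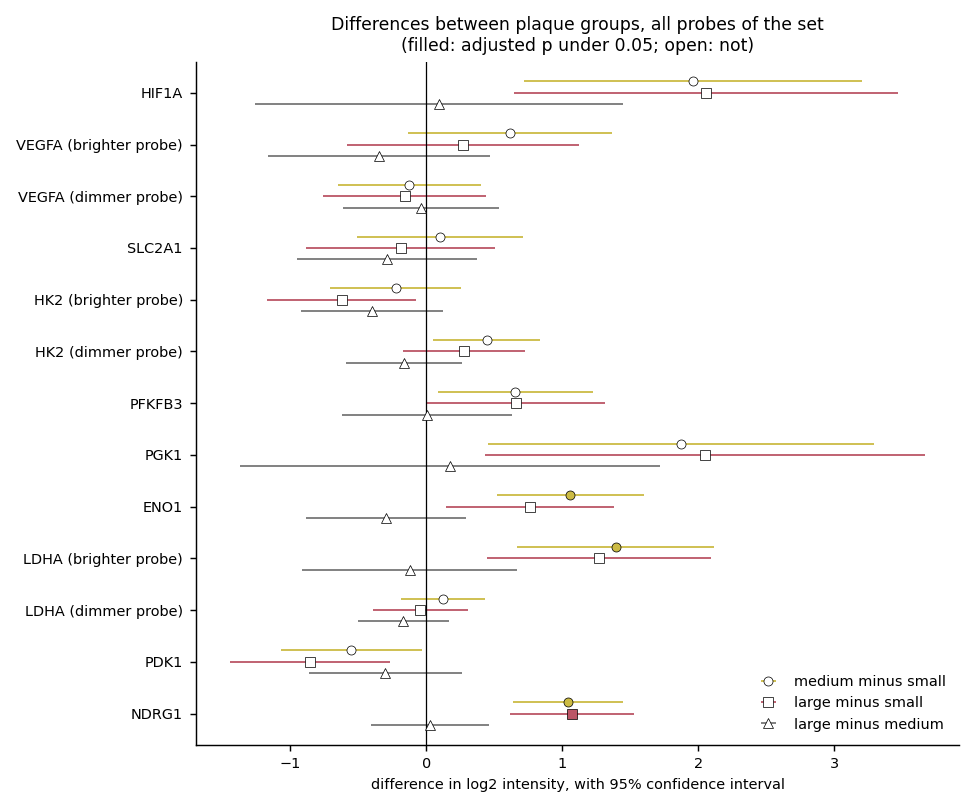
Difference in log2 intensity (x axis, with 95% confidence interval) for the 13 probes of the 10 genes (y axis), as medium minus small, large minus small and large minus medium. Filled symbols mark the 4 differences past the threshold, those of ENO1, LDHA and NDRG1 in medium and of NDRG1 in large.

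For the 3 genes with 2 probes, the probes gave differences of unequal size or sign. VEGFA, the vessel growth factor, read 1.61, 0.881, 0.744 and 0.612 in small, 2.23, 0.962, 1.01, 1.75 and 1.29 in medium, and 1.32, 1.40 and 0.685 in large on its brighter probe. The groups overlapped, with a difference of 0.62 ± 0.34 in medium (adjusted p 0.373) and 0.27 ± 0.39 in large (adjusted p 0.785). The dimmer VEGFA probe, annotated to the RefSeq transcript, differed by -0.12 ± 0.24 in medium and by -0.16 ± 0.28 in large. The 95% confidence interval in medium ran from -0.13 to 1.36 on the brighter probe and from -0.65 to 0.40 on the dimmer one.

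HK2 encodes the hexokinase of muscle and of proliferating cells, which traps glucose in the cell. Its brighter probe read 1.17, 1.62, 2.42 and 2.51 in small, 1.37, 1.59, 1.76, 1.62 and 1.54 in medium, and 1.08, 1.16 and 1.37 in large, and differed by -0.23 ± 0.22 in medium (adjusted p 0.635) and by -0.62 ± 0.25 in large (adjusted p 0.252). The dimmer probe, annotated to the RefSeq transcript, read 1.08, 0.959, 0.916 and 1.01 in small, 1.22, 1.59, 1.53, 0.946 and 1.59 in medium, and 1.13, 1.12 and 1.37 in large. It differed by 0.44 ± 0.18 in medium (adjusted p 0.217) and by 0.28 ± 0.21 in large (adjusted p 0.546), so that the sign of the difference for HK2 depended on the probe in each comparison. Neither probe passed in either.

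The dimmer LDHA probe, annotated to another GenBank record, did not follow the brighter one. It read 3.56, 3.24, 3.90 and 2.85 in small, 3.55, 3.32, 3.88, 4.09 and 3.53 in medium, and 3.26, 3.13 and 3.40 in large. Its difference was 0.12 (95% confidence interval -0.18 to 0.43) in medium and -0.04 (-0.40 to 0.31) in large. The rise of LDHA thus rested on 1 of its 2 probes.

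**Figure D3:**
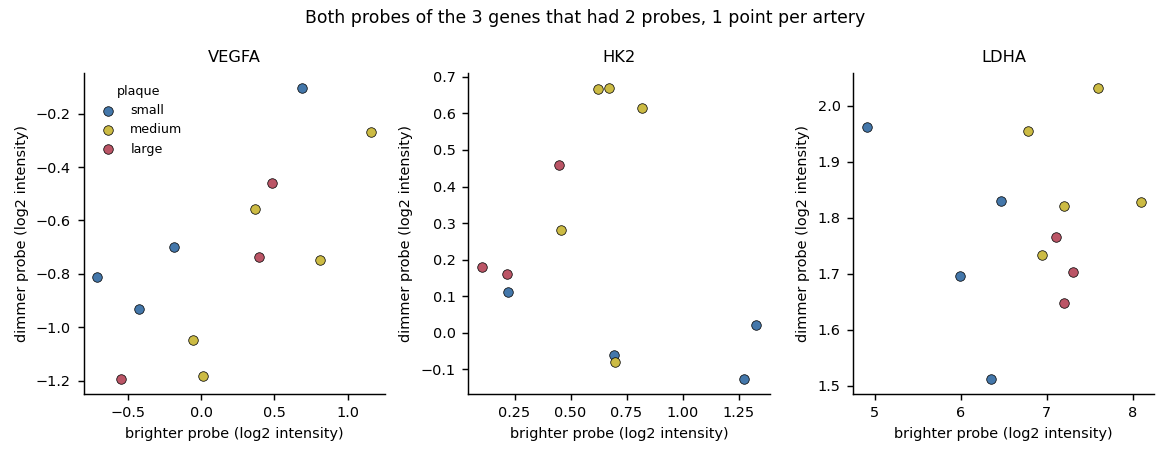
Log2 intensity on the dimmer probe (y axes) against the brighter probe (x axes) of VEGFA, HK2 and LDHA, 1 point per artery, coloured by plaque group. The brighter LDHA probe spans 4.91 to 8.09 across the arteries and the dimmer one 1.51 to 2.03.

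The artery with the highest value was noted for each gene of the set, on its brightest probe. Medium replicate 1, with 0.448 mm2 of plaque, had the highest value of all 12 arteries for 5 of the 10 genes, HIF1A, VEGFA, PFKFB3, PGK1 and LDHA. Medium replicate 4, with 0.542 mm2, had the highest for ENO1 and NDRG1, and small arteries for SLC2A1, PDK1 and HK2. No large artery had the highest value of any gene of the set. How often each artery was highest over all probes was not computed, so these counts are a description only. Without medium replicate 1 the differences between medium and small were 1.20 for LDHA, 1.29 for PGK1, 1.65 for HIF1A and 0.44 for PFKFB3, none past the threshold.

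Large and medium arteries were compared directly. None of the 10 genes passed, as none of the 53877 probes did (0% called by limma), and none of the 10 had an unadjusted p under 0.05, against 5.04% of all probes. The differences ran from -0.40 ± 0.24 for the brighter HK2 probe to 0.18 ± 0.71 for PGK1. HK2 on that probe was the 1 gene whose ranges did not overlap, with large below medium, against 2.93% of all probes (5.47% in either direction), and the highest large and the lowest medium artery both read 1.37. For NDRG1 the interval was -0.41 to 0.46 and for ENO1 -0.88 to 0.29, whereas for HIF1A it was -1.26 to 1.45.

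Among the 10 genes of the set, the slope on plaque area over all 12 arteries passed for NDRG1 alone. The NDRG1 slope was 1.46 ± 0.29 log2 units per mm2 (limma adjusted p 0.0442). Slopes passed for 0.583% of all probes and for 1.08% of the brightest probes of the 18080 genes with a single symbol. The call of NDRG1 was lost without any 1 of 10 animals, all but medium replicates 1 and 4, at adjusted p-values from 0.052 to 0.15. The NDRG1 slope itself stayed between 1.37 and 1.62. Over all probes 314 slopes passed with all animals. Only 1 passed without small replicate 2 or without small replicate 4, 0 without large replicate 3, and 746 without medium replicate 1. In the set, slopes of 2.42 ± 0.88 for HIF1A, 1.67 ± 0.53 for the brighter LDHA probe and 1.13 ± 0.41 for ENO1 did not pass. Over the 8 medium and large arteries alone the slope was 0.58 ± 0.43 for NDRG1, 0.14 ± 1.03 for HIF1A, 0.07 ± 0.63 for the brighter LDHA probe and -0.22 ± 0.44 for ENO1. None of all probes passed there (0). PDK1 had -1.03 ± 0.32 per mm2 over all 12 arteries and -0.63 ± 0.58 over the 8, neither past the threshold.

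Other genes of the pathway were taken from lists and counted on the brightest probe of each gene. Of the brightest probes of the 18080 genes with a single symbol, 5.2% passed in medium and 2.17% in large. Among 11 measured HIF subunits and oxygen sensors none passed in either comparison with small, and their median difference was 0.09 in medium and -0.05 in large, where the median of all probes was -0.09 and -0.10. EPAS1, the related alpha subunit of endothelium, differed by 0.15 ± 0.25 in medium and -0.44 ± 0.28 in large, and by 0.59 ± 0.37 and -0.05 ± 0.42 on its dimmer probe. EGLN1, a prolyl hydroxylase that marks the alpha subunits for degradation, differed by -0.51 ± 0.34 in medium, and VHL, which then binds them for degradation, by 0.80 ± 0.41 in large. Without small replicate 3, whose EGLN1 value lay far below the other small arteries, EGLN1 differed by -0.95 in medium and passed (limma adjusted p 0.0212). Without any other 1 animal it did not pass, at limma adjusted p-values up to 0.677. The dimmer EGLN1 probe had the opposite sign, at 0.15 ± 0.22 in medium (adjusted p 0.773) and 0.63 ± 0.25 in large (adjusted p 0.25), so the direction for EGLN1 depended on the probe.

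Of 19 other measured targets of the factor 2 rose and 1 fell in each comparison with small. This was 15.8% of the list, where 5.2% of the brightest probes of all genes passed in medium and 2.17% in large. The median of the list was 0.19 in medium and 0.18 in large. CA12, a carbonic anhydrase of the cell membrane, read 3.18, 2.21, 3.55 and 2.00 in small, 11.5, 7.23, 17.6, 23.5 and 8.88 in medium, and 18.4, 8.02 and 32.3 in large. It rose by 2.24 ± 0.42 in medium (limma adjusted p 0.016) and by 2.66 ± 0.48 in large (limma adjusted p 0.023). ERO1A, an oxidase that helps proteins form disulfide bonds, rose by 2.41 ± 0.35 in medium (limma adjusted p 0.00393) and by 2.16 ± 0.40 in large (limma adjusted p 0.0261). KDM3A, a histone demethylase, fell by 0.80 on the log2 scale in medium (SE 0.19, limma adjusted p 0.0421). It fell by 1.20 in large (SE 0.21, limma adjusted p 0.0221), although it is known as a gene induced by low oxygen. The slope on plaque area passed for CA12, at 3.55 per mm2, and for KDM3A, at -1.49 (limma adjusted p 0.0311 for each). These were 10.5% of the list, against 1.08% of the brightest probes of all genes. Each slope call was lost without any 1 of 5 animals.

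The rises of CA12 and ERO1A were seen on the brightest probe of each gene. The other 2 probes of CA12 differed by 0.31 and -0.002 in medium and the other probe of ERO1A by 0.04, none past the threshold. BNIP3, a mitochondrial protein that promotes mitophagy and is named here after its values were seen, showed the reverse. Its dimmer probe rose by 2.39 ± 0.45 in medium (limma adjusted p 0.0152), 5.25-fold, and differed by 2.07 ± 0.51 in large (adjusted p 0.0736), with every medium and large artery above every small one. Its brighter probe, the one counted above, differed by -0.02 ± 0.17 in medium and -0.28 ± 0.19 in large. The KDM3A call was lost without any 1 of 10 animals in medium, all but small replicate 1 and large replicate 2 (adjusted p 0.0515 to 0.118), and without small replicate 2 or large replicate 1 or 3 in large (0.0708 to 0.125). With quantile normalization KDM3A differed by -0.47 in medium (adjusted p 0.363) and by -1.04 in large (adjusted p 0.103) and passed in neither. In medium the call of CA12 was lost without small replicate 2 (adjusted p 0.051) and that of ERO1A held without any 1 animal, and in large CA12 was lost without small replicate 2 or 4 or large replicate 1 or 3 (0.0535 to 0.118) and ERO1A without small replicate 2 or large replicate 1, 2 or 3 (0.0583 to 0.135). Among the 16 targets that did not pass, ANGPTL4, an inhibitor of lipoprotein lipase, differed by 1.57 ± 0.45 in large (adjusted p 0.116). With 1 animal left out its limma adjusted p ran from 0.0494, without medium replicate 1, to 0.363, and only the former passed. PLOD2, a collagen lysyl hydroxylase and another of the 16, differed by -0.75 ± 0.32 in medium (adjusted p 0.233).

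Of 18 other measured glycolytic enzymes 1 rose and none fell in medium, while 2 rose and 1 fell in large. These were 5.56% and 16.7% of the list, against 5.2% and 2.17% of the brightest probes of all genes, so the medium count lay near that share. The medians were 0.12 in medium and 0.05 in large. HK3, a hexokinase found mainly in blood cells, read 0.987, 0.780, 0.433 and 0.342 in small, 5.15, 1.91, 1.32, 5.26 and 2.60 in medium, and 2.59, 3.03 and 4.30 in large. It rose by 2.28 ± 0.44 in medium (limma adjusted p 0.0176) and by 2.48 ± 0.50 in large (limma adjusted p 0.0392). HK1, the hexokinase of most tissues, rose by 1.98 ± 0.40 in large (limma adjusted p 0.0403). It differed by 1.40 ± 0.36 in medium (adjusted p 0.054), where it passed without small replicate 4 or medium replicate 4. Without any other 1 animal it did not pass in medium, at limma adjusted p-values up to 0.138. The dimmer HK1 probe differed by 0.74 ± 0.36 in medium and 1.13 ± 0.41 in large (adjusted p 0.306 and 0.209). PGAM2, the muscle form of phosphoglycerate mutase, fell by 1.33 in large on the log2 scale (SE 0.28, limma adjusted p 0.0439), where it read 5.51, 5.96 and 3.93 in large against 9.65, 12.3, 13.0 and 16.7 in small.

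The HK3 call in medium held without any 1 animal. In large HK3, HK1 and PGAM2 were lost without 7, 8 and 8 of the 12 animals, each time including small replicates 2 and 3 and large replicates 1, 2 and 3. HK3 was also lost there without small replicate 4 or medium replicate 5, HK1 without medium replicate 2, 3 or 5, and PGAM2 without small replicate 4 or medium replicate 2 or 3, at adjusted p-values between 0.0526 and 0.181 for the 3 genes. GAPDH, a glycolytic enzyme often used as a constant standard and named here after its values were seen, differed by 2.65 ± 0.71 in medium (adjusted p 0.0694) and by 3.38 ± 0.81 in large (adjusted p 0.0675) on its only probe. The dimmer of 2 TPI1 probes, also named after its values were seen, rose by 1.72 ± 0.37 in large (limma adjusted p 0.049), where the brighter one differed by 0.30 ± 0.35. PFKFB1, an isoform of PFKFB3 found mainly in liver and muscle, differed by -0.996 ± 0.302 in large (adjusted p 0.133). Without small replicate 1, the lowest small artery for this gene, it differed by -1.32 and passed (limma adjusted p 0.00861). Over all probes 1216 passed in large without that animal, against 617 with it. Without any other 1 animal PFKFB1 did not pass, at limma adjusted p-values up to 0.342. The dimmer PFKFB1 probe differed by -0.78 ± 0.49 over all arteries (adjusted p 0.472).

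**Figure D4:**
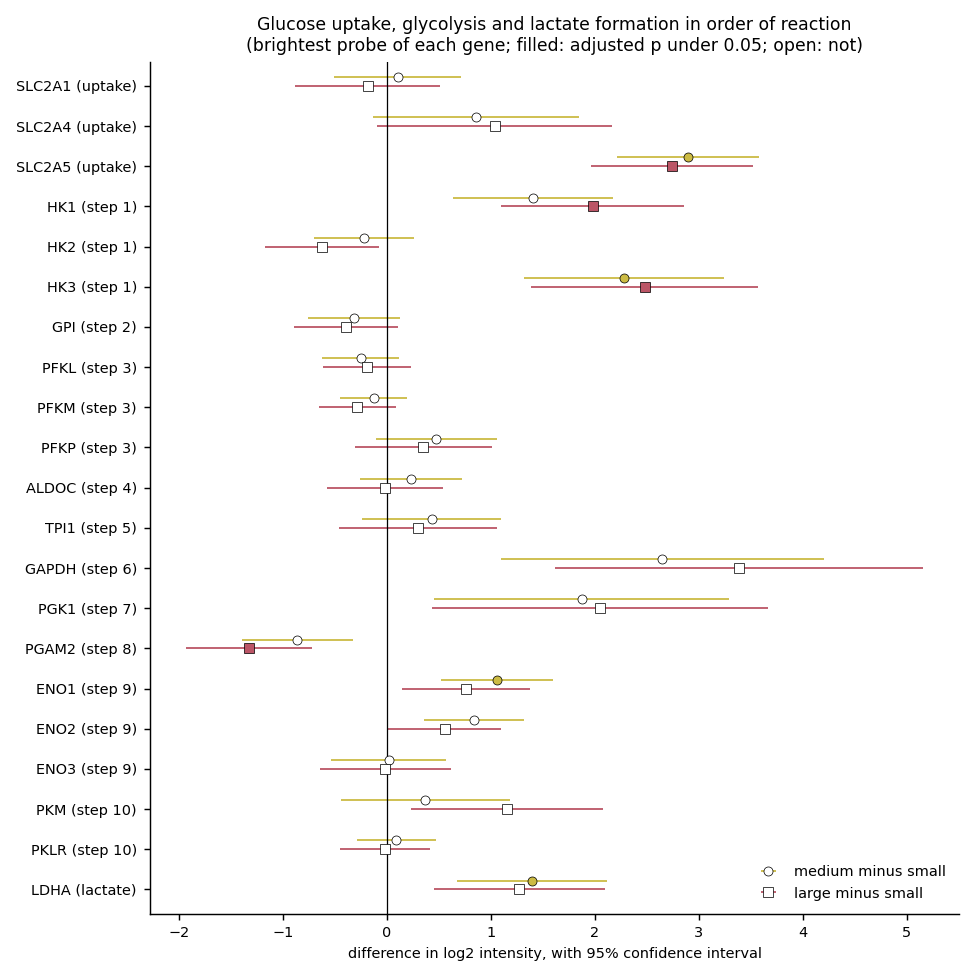
Difference in log2 intensity (x axis, with 95% confidence interval) for sugar transporters and the enzymes of glycolysis and lactate formation (y axis). The genes are in the order of the reactions, as medium minus small and large minus small, on the brightest probe of each gene. Filled symbols (adjusted p under 0.05) appear at SLC2A5, HK1, HK3, ENO1 and LDHA on the higher side and at PGAM2 on the lower side. SLC2A5, drawn under uptake, is a fructose transporter, and the glucose transporter SLC2A1 has open symbols only. GPI, the phosphofructokinase subunits, ALDOC and TPI1 also have open symbols only.

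Of 11 other measured glucose and lactate transporters 1 rose in each comparison with small and none fell. This was 9.09% of the list, where 5.2% of the brightest probes of all genes passed in medium and 2.17% in large. SLC2A5, a fructose transporter, read 2.08, 1.81, 2.76 and 2.06 in small, 26.0, 11.6, 9.58, 27.4 and 13.1 in medium, and 13.0, 12.8 and 18.0 in large, so that every medium and large artery far exceeded every small one. It rose by 2.89 ± 0.31 in medium (limma adjusted p 0.000629), 7.41-fold, and by 2.74 ± 0.36 in large (limma adjusted p 0.00426), 6.69-fold, and both calls held without any 1 animal. The median of this list was 0.07 in medium and 0.14 in large.

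In the pentose phosphate pathway and gluconeogenesis 1 of 11 rose in each comparison and none fell. This was 9.09% of the list, against 5.2% of the brightest probes of all genes in medium and 2.17% in large. TALDO1, transaldolase of the pentose phosphate pathway, read 6.32, 4.16, 7.71 and 6.55 in small, 40.0, 22.7, 18.4, 29.2 and 21.1 in medium, and 25.5, 18.0 and 18.3 in large. It rose by 2.07 ± 0.25 in medium (limma adjusted p 0.00148) and by 1.75 ± 0.29 in large (limma adjusted p 0.0144), a call lost without large replicate 1 or 3 (adjusted p 0.0638 to 0.0981). Among the enzymes of gluconeogenesis PCK1 had a slope of -1.35 ± 0.35 per mm2 (adjusted p 0.0881), which did not pass.

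Of 11 genes of the pyruvate dehydrogenase complex, its regulators and the pyruvate carrier 1 fell in medium and none passed in large. The medium count was 9.09% of the list, against 5.2% of the brightest probes of all genes. PDHA1, the catalytic alpha subunit that the PDK kinases phosphorylate, read 30.7, 26.1, 30.2, 32.1 and 27.8 in medium, against 48.6, 50.6, 39.0 and 49.6 in small. It fell by 0.67 on the log2 scale (SE 0.15, limma adjusted p 0.0285), and the call was lost without small replicate 1, 2 or 4 or medium replicate 1, 2, 3 or 5 (adjusted p 0.0507 to 0.0829). MPC2, a subunit of the mitochondrial pyruvate carrier, differed by 1.20 ± 0.33 in large (adjusted p 0.105) and DLAT, another subunit of the complex, by -1.29 ± 0.34 (adjusted p 0.0914). Without small replicate 1 both passed in large (limma adjusted p 0.0431 and 0.0365). Over all probes 1216 passed in large without that animal, against 617 with it. Without any other 1 animal neither passed, at limma adjusted p-values up to 0.298 for MPC2 and 0.313 for DLAT. The dimmer DLAT probe had the opposite sign, at 0.65 ± 0.28 in medium (adjusted p 0.234) and 0.61 ± 0.32 in large (adjusted p 0.369), so the direction for DLAT depended on the probe. The dimmer PDHA1 probe differed by -0.72 ± 0.42 in medium (adjusted p 0.404).

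**Figure D5:**
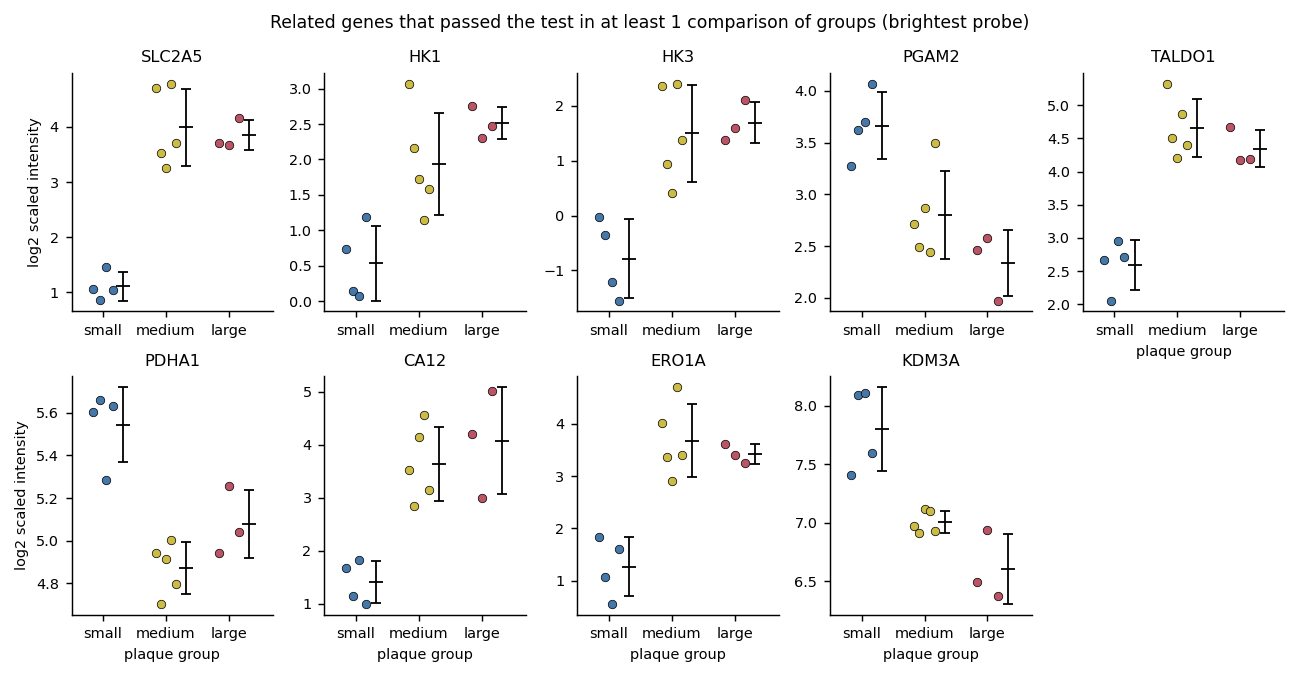
Log2 scaled intensity of the brightest probe (y axes) of 9 related genes that passed in at least 1 comparison of groups, by plaque group (x axes: small, n = 4, then medium, n = 5, then large, n = 3), 1 point per artery, with mean and SD beside the points. SLC2A5, HK3, TALDO1, CA12 and ERO1A lie higher in all medium and large arteries than in any small one, and PDHA1 and KDM3A lie lower.

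None of 9 measured genes of the VEGF family and its receptors passed on the brightest probe in either comparison with small, with medians of -0.10 in medium and 0.39 in large. NRP1, a co-receptor for VEGF, differed by 1.16 ± 0.30 in medium (adjusted p 0.0611) and by 1.23 ± 0.34 in large (adjusted p 0.106), and VEGFC, a growth factor of lymphatic vessels, by 0.95 ± 0.36 in large (adjusted p 0.227). Without small replicate 1 NRP1 passed in medium (limma adjusted p 0.0375) and VEGFB in large (limma adjusted p 0.0426). Over all probes 1415 passed in medium and 1216 in large without that animal, against 1693 and 617 with it. Without any other 1 animal neither passed, at limma adjusted p-values up to 0.139 for NRP1 in medium and 0.556 for VEGFB in large. The dimmer NRP1 probe differed by 0.05 ± 0.39 in medium and -0.41 ± 0.44 in large, and the dimmer VEGFB probe by 0.29 ± 0.31 in large, none past the threshold. NRP2, the other co-receptor, differed by 0.54 ± 0.21 in medium on its brightest probe (adjusted p 0.201). Of 3 dimmer NRP2 probes, 1 rose by 3.18 ± 0.45 in medium (limma adjusted p 0.00338) and by 2.57 ± 0.52 in large (limma adjusted p 0.0377), values that were named after they were seen. Another rose by 2.38 ± 0.43 in medium (limma adjusted p 0.0136) and by 2.28 ± 0.49 in large (limma adjusted p 0.05, just under the threshold before rounding), and the last differed by -0.31 ± 0.15 in medium (adjusted p 0.32). None of NDRG2, NDRG3 and NDRG4, the relatives of NDRG1, passed, and in medium they differed by -0.09 ± 0.45, -0.55 ± 0.25 and -0.46 ± 0.28, with 0.13 ± 0.18 on the dimmer NDRG3 probe. NDRG4 differed by -1.03 ± 0.31 in large (adjusted p 0.133, or 0.0159 without small replicate 1). Without any other 1 animal NDRG4 did not pass there, at limma adjusted p-values up to 0.353.

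Changes of a gene against a related gene were compared within each artery, as the difference of their log2 values, for 8 of 10 chosen pairs that had probes for both genes. No pair passed after adjustment over the 8 pairs, at adjusted p-values from 0.127 to 0.627 in medium and from 0.152 to 0.657 in large (exact permutation test, two-sided). The smallest exact p that these group sizes allow is 0.00794 in medium and 0.0286 in large. After adjustment over 8 pairs, a pair that changed alone could not pass in either comparison. The test could therefore not decide whether a single pair changed. HK2 minus HK1, on the brighter HK2 probe, moved by -1.63 in medium against small (exact p 0.0238, n = 5 and 4) and by -2.60 in large against small (exact p 0.0286, n = 3 and 4, the smallest that 35 arrangements allow). HIF1A minus EPAS1 moved by 1.81 in medium (exact p 0.0556) and by 2.50 in large (exact p 0.0857). VEGFA minus VEGFB, on the brighter VEGFA probe, moved by 0.72 in medium (exact p 0.0318) and by -0.47 in large (exact p 0.429), with opposite signs. The dimmer VEGFA probe, not used in the pair, differed by -0.12 in medium, and VEGFB by -0.10. NDRG1 minus NDRG2 moved by 1.13 in medium (exact p 0.103) and by 0.83 in large (exact p 0.171).

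The genes whose values over the 12 arteries lay nearest to those of NDRG1, after centring, were PRCP, ZNF594-DT and ADAM10, with root mean square differences of 0.178, 0.191 and 0.198 log2 units, where the median over 18070 genes was 0.683. Nearest to ENO1 were ZBED1, EDARADD and HMOX2 (0.177, 0.195 and 0.21, median 0.70). Nearest to the brighter LDHA probe were BLOC1S2, UBE2T and STRADB (0.187, 0.199 and 0.214, median 0.892). The measure is a description over the 12 arteries, which share the step between small and the other groups.

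Markers of cell types moved with these groups. The shares beside their counts are 5.2% in medium and 2.17% in large, over the brightest probes of the 18080 genes with a single symbol. Of 16 measured macrophage markers 10 rose in medium and 9 in large, with none lower, and their summed intensity was 77.9 to 144.7 in small, 323.4 to 648.7 in medium and 338.9 to 514.9 in large. None of the 16 was at the floor on all arrays of a group, although CD68, a lysosomal protein used to stain macrophages, differed by -0.44 ± 0.45 in medium and -0.66 ± 0.51 in large (adjusted p 0.648 and 0.565). Of 11 measured contractile smooth muscle markers 2 fell in medium and 1 in large. Their summed intensity was 2099 to 2976 in small, 865.3 to 1748 in medium and 1113 to 1959 in large. That of 12 endothelial markers was 166 to 232.5, 77.16 to 125.7 and 96.61 to 130.1. ESAM alone, 1 of these 12, averaged 146.5 in small, 58.0 in medium and 71.5 in large. Such sums add unlike probes and weigh the brightest most. PECAM1 of endothelium differed by -0.10 ± 0.16 in medium and -0.06 ± 0.19 in large on its brightest probe, while 1 of 2 dimmer ones rose by 1.21 ± 0.24 in medium and 1.25 ± 0.27 in large (limma adjusted p 0.0184 and 0.0486) and the other differed by -0.10 ± 0.22 and 0.15 ± 0.25. On the brightest probes 1 of 12 endothelial markers fell in medium, 1 of 10 skeletal muscle markers fell in medium, 2 of 12 T cell markers rose in medium and none in large, and none of the adipocyte, adventitial fibroblast or red blood cell markers passed in these comparisons. A dimmer probe of DPT, a fibroblast matrix protein, fell by 1.35 on the log2 scale in medium (limma adjusted p 0.0253), and one of CSF1R, a macrophage receptor, rose by 2.90 in medium and 2.58 in large (limma adjusted p 0.00345 and 0.0249). The part of cell composition in the differences of NDRG1, LDHA, ENO1, SLC2A5, HK3, TALDO1, CA12 and ERO1A was not tested.

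Small replicate 4 and medium replicate 5 carry animal numbers that lie apart from the other 10, and without both NDRG1 rose by 1.09 in medium (limma adjusted p 0.0489), while NDRG1 in large (1.08, adjusted p 0.0819), LDHA in medium (1.56, adjusted p 0.087) and ENO1 in medium (0.86, adjusted p 0.117) did not pass.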

How the data were processed

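Total RNA of each biopsy was amplified to biotinylated cRNA and hybridized to a single-colour CodeLink array of human probes, per the labels' protocols. The values deposited by the authors are linear intensities, scaled so that each array's median lies close to 1, as the values show. Some lie below 0, as values do after a background is subtracted. The image software is not given in the sources used here, and neither is the way the scale was set. A mismatch between a human probe and monkey RNA can lower its signal.

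Of 54359 probes, the 53877 with values in at least 2 animals per group were tested. Intensities below the 5th percentile of positive values, 0.111, were set to it (5.45% of values) before log2, and no further normalization was applied. Gene symbols are those of the array platform's annotation table, some of them old. The brightest complete probe stood for a gene in counts. Limma version 3.58.1 in R version 4.3.3 was fitted with 3 group means, and with plaque area for the slope, over all 12 arrays. P-values are two-sided and adjusted over all tested probes. Replicates were separate animals, and their number limits the precision. The scripts were tested on simulated data with known changes in 200 of 53584 probes. Of changes of 2 log2 units 79% were recovered in medium against small, 64% in large against small and 72% in large against medium. False calls were 6.51%, 7.25% and 0.69% of the calls. Of slopes of 4 per mm2 97.5% were recovered, with 5.8% of calls false. Smaller changes were not simulated.

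The genes, the lists and the tests were chosen with earlier results of these data known. Named were all genes of the set on every probe, the genes of each pathway list that passed (at most 4 per list and comparison) or else the 2 of smallest p, the related gene of each pair, a few cell type markers, and the 3 nearest profiles of genes that passed. The text names part of these. Alternatives covered normalization, floor, dim and incomplete probes, the variance model, array weights, thresholds, samples, the area scale, the replicate number and each animal left out.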

Additional observations from a re-analysis of the deposited data

Results flagged for a closer look

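In 104 sets of 4 small or 5 medium values, 6 had a lowest or highest artery that stood apart from the rest by Dixon's criterion, which chance meets in about 1 of 20 sets. No gene of the hypoxia and glycolysis set was among them. EGLN1 was lowest in small replicate 3, at 3.23 log2 units, with the other small arteries from 4.91 to 5.07, and PDHA1 was lowest in the same artery, at 5.29, with the others from 5.60 to 5.66. PFKFB1 was lowest in small replicate 1, at 5.00, with the others from 6.24 to 6.34. In the medium group PDK2 was highest in replicate 5, at -1.60, with the others from -2.60 to -2.47, and PKM was lowest in replicate 5, at 2.59, with the others from 3.56 to 3.90. VEGFB was highest in medium replicate 1, at 4.12, with the others from 3.45 to 3.56.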

How the results depend on the processing

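The number of the 10 genes that passed in medium against small was 3. It was 1 (NDRG1) with a floor at the 1st percentile and with only the compared groups, 2 with array weights (ENO1, NDRG1), with the replicate block (LDHA, NDRG1) and without both animals numbered apart (HIF1A, NDRG1), 0 at an adjusted p under 0.01 and 4 at an adjusted p under 0.1. It ranged from 1 to 3 with 1 animal left out. In large against small the number was 1. It was 0 with only the compared groups, with the replicate block, without both animals numbered apart and at an adjusted p under 0.01, and 0 to 1 with 1 animal left out. For the slope it was 1, against 0 with a floor at the 1st percentile, array weights, the replicate block, both animals left out, an adjusted p under 0.01 or only the medium and large arteries, 2 (ENO1, NDRG1) with the square root of area, and 0 to 1 with 1 animal left out. In large against medium it was 0 under all 27 alternatives. Under the alternatives not named here the counts were those of the report. At an adjusted p under 0.01 the counts over all probes were 424 in medium, 135 in large and 1 for the slope. At an adjusted p under 0.1 it was 3200 in medium. For the slope 1586 of all probes passed with the square root of area and 0 with only the medium and large arteries. The cause of these changes was not tested. The largest adjusted p for NDRG1 in medium was 0.0489. No value that passed changed its sign. The replicate numbers shared by the groups mark no common source in the labels. Deviations of same-numbered arteries correlated at -0.159 to 0.217, above 0.1 for 4 of 10 pairs, so the numbers were not taken to pair the animals. With the replicate block the adjusted p in medium was 0.11 for ENO1, 0.0431 for LDHA and 0.033 for NDRG1, and for NDRG1 0.054 in large and 0.179 for the slope. Over all probes 866 passed in medium, 448 in large and 0 for the slope with the block, against 1693, 617 and 314 without it. Without both animals numbered apart 773, 316 and 0 probes passed. A floor at the 1st percentile left 1361 in medium and 174 for the slope, and array weights left 1586 and 310. With only the compared groups 1194 passed in medium and 379 in large. With 1 animal left out counts ran from 847 to 1568 in medium, 112 to 1216 in large and 0 to 746 for the slope. Among the related genes quantile normalization ended the calls of KDM3A and PDHA1 in medium and of KDM3A, HK1 and PGAM2 in large. Leaving out both animals numbered apart ended those of CA12, HK3, KDM3A and PDHA1 in medium and of CA12, ERO1A, HK1, HK3, KDM3A and PGAM2 in large. Dim probes such as those of SLC2A1 and PDK1 lie close to the floor, which limits what they can show.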
